A study of Mus musculus with 6 samples.

Results

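Messenger RNA of 10 cytokine genes that activated CD4+ T cells can transcribe, Il2, Il3, Il10, Il17a, Il17f, Il21, Il22, Ifng, Lif and Lta, was described in primary mouse T cells in which the kinase DYRK1A was targeted by RNA interference or by a small molecule. The genes were chosen by symbol, 10 rows of the 23420 genes in the deposited table, and all 10 were present. The cells were splenic CD4+CD62L+ cells of BALB/c mice of 12 weeks, purified with magnetic beads and activated on plate-bound antibodies against CD3 and CD28, with no differentiating cytokine mentioned in the labels. At 24 h each culture received 10 µl of shRNA virus per well, at a further 24 h it was fed medium with IL-2, and at a further 48 h it was harvested. The Dyrk1a shRNA group carried a hairpin against Dyrk1a, the harmine group carried a scrambled hairpin and received 3.7 µM harmine, a plant alkaloid that inhibits DYRK1A, and the control group carried the scrambled hairpin without harmine. Each group had 2 libraries of polyadenylated RNA, 6 in all. Activation, the virus and feeding were common to the 3 groups. The paper's methods differ on IL-2: Th0 cultures, the condition it names for these cells, are described as getting none. Whether IL-2 was fed is thus uncertain. The labels do not say whether replicates came from separate mice or cultures, so every p-value measures only the spread between these libraries, which may be technical, and the sex of the mice and the hairpin sequence behind each library are not stated in the sources used here.

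Helper T cells act on other cells mainly through secreted cytokines, and each helper lineage is known by the set it makes. IL-2 is the growth factor made first after T cell receptor stimulation, IFN-γ marks Th1 cells, IL-17A, IL-17F and IL-22 mark Th17 cells, and IL-21 is made by Th17 and T follicular helper cells. IL-10 restrains inflammation, IL-3 stimulates hematopoietic cells, LIF signals through gp130, and lymphotoxin-α, the product of Lta, is a TNF family ligand. Transcription of several of them depends on NFAT, a family of factors that calcineurin brings into the nucleus and that DYRK kinases phosphorylate, which favors their export. Many lie beside a related gene. On GRCm38, the assembly also called mm10, Il2 (chr3:37120523-37125959) and Il21 (chr3:37222759-37232636) were 96.8 kb apart on the minus strand, Il17a (chr1:20730905-20734496, plus strand) and Il17f (chr1:20777146-20790617, minus strand) were 42.6 kb apart, and Il22 (chr10:118204942-118210047) and Ifng (chr10:118441046-118445892) were 231 kb apart on the plus strand. Lta (chr17:35203165-35205351, minus strand) lay 1.16 kb from Tnf, Lif (chr11:4257557-4272514, plus strand) 16.5 kb from Osm, Il3 (chr11:54265303-54267277, minus strand) 15.6 kb from Csf2 and Il10 (chr1:131019845-131024974, plus strand) 79.7 kb from Il19. All 10 genes are annotated as protein coding by GENCODE M21. Il2 overlaps Adad1, which is on the opposite strand and is also in the table, and whether the counting used strand is not stated in the sources read, so reads from the overlap cannot be told apart.

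The bases before the start site are shown for the 2 neighbor pairs around which the results turn, Il2 with Il21 and Il17a with Il17f. They are RefSeq sequence of GRCm38.p6, printed 5′ to 3′ on the strand of each gene, up to 250 bases before the RefSeq start and without bases that GENCODE counts as exon of the same gene. The window of Il17f lies before its RefSeq start but inside the longer span that GENCODE gives the gene (chr1:20777146-20790617). Capitals mark the NFAT core GGAAA, or TTTCC where it reads on the other strand.
Il2 (chr3:37125960-37126204, minus strand): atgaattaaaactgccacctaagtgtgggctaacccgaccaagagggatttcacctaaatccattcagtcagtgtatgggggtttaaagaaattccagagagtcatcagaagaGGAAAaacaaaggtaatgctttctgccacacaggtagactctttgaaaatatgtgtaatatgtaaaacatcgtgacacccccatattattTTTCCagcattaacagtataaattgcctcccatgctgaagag
Il21 (chr3:37232637-37232886, minus strand): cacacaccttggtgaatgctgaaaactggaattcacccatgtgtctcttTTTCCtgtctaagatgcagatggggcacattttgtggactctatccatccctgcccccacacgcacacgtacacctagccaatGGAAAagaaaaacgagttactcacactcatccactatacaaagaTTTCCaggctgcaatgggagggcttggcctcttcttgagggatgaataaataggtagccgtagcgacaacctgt
Il17a (chr1:20730655-20730904, plus strand): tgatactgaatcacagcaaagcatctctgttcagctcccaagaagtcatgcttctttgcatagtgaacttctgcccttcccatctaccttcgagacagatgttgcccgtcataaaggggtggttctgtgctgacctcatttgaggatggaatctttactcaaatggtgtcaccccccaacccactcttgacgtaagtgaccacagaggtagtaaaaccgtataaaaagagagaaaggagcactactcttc
Il17f (chr1:20784271-20784494, minus strand): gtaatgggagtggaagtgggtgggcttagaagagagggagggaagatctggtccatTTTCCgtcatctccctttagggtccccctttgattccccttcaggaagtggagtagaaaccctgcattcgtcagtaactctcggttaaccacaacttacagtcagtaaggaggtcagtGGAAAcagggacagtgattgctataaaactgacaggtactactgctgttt
The core occurred 2 times before Il2, 3 times before Il21, 2 times before Il17f and 0 times before Il17a. In windows of 250 bases it occurred in 55.6% of 32851 RefSeq promoters and at least 2 times in 21.4%. Of the other members with a promoter in the RefSeq table, Lta held it 2 times and Ifng, Il22, Il3 and Lif 1 time each, and Il10 had no entry. An AP-1 motif, TGANTCA, occurred before Il17a and Lif (6.75% of all promoters), and TATAAA before Il2, Il17a, Il17f, Il22, Ifng and Lta (12.4%), both searched on both strands. These matches describe letters and not factor binding, which was not measured.

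A different kind of sequence bears on Il22. The reference assembly holds a near copy of it, Iltifb, 79.6 kb away on the minus strand. The coding sequences of Il22 and Iltifb, 540 bases each, were identical at 531 positions (98.3%). The stretch with coding positions 128 to 217 is shown because it holds 4 of the 9 differing bases, in capitals.
Il22: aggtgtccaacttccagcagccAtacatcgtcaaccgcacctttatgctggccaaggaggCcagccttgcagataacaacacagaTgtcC
Iltifb: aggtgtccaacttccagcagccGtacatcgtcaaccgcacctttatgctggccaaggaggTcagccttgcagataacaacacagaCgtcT
Whether these BALB/c cells carry Iltifb was not tested. Reads that cross no differing base cannot be told apart, and the expected counts divide them. Iltifb was given 1.53 and 1.61 counts with Dyrk1a shRNA, 3.97 and 0 with harmine and 0 and 2.48 in the controls, and only in harmine 1, with 2.03 counts for Il22, was the copy given more counts than Il22. By contrast, the coding sequences of Il17a and Il17f were identical at 59.4% of aligned positions and those of Il2 and Il21 at 44.2%.

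The libraries were shallow, with 2678895 and 3274103 counts for Dyrk1a shRNA, 3441100 and 3747699 for harmine and 1743463 and 1096387 for control, so that 1 count was worth 0.263 to 0.841 CPM (counts-per-million values, in which a count is divided by the scaled library total). Of the 23420 genes, 10607 passed the count filter and were tested. The targeted mRNA, Dyrk1a, stood at 60 and 61.8 CPM in the Dyrk1a shRNA libraries, 74.6 and 77.4 CPM in the harmine libraries and 58.2 and 82.5 CPM in the control libraries, and its log2 fold change of Dyrk1a shRNA against control was -0.19 (standard error 0.21, edgeR quasi-likelihood test, Benjamini-Hochberg adjusted p = 0.835). The difference was within the spread of the controls, with log2 values of -0.45 without control 1 and 0.07 without control 2, so a knockdown was not detected and the Dyrk1a counts do not check the label of the hairpin libraries. CD4 T cell markers summed to 3190 to 3680 CPM per library, against 39 to 61.3 CPM for CD8 T and NK cell markers, 20.2 to 30.3 CPM for B cell markers, 19.1 to 45.7 CPM for myeloid markers and 12.6 to 21.9 CPM for mast cell and basophil markers. The control replicates differed most, with a chi-square per degree of freedom of 10.1, against 3.69 for the Dyrk1a shRNA and 4.02 for the harmine replicates, and 76 ribosomal protein genes were higher in control 1 than in control 2 by a median of 1.25 on the log2 scale.

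Of the 10 genes Lta and Il17f had the highest mean levels, and Ifng was nearly absent. Per kilobase of the longest transcript, the mean levels over 6 libraries were 119 CPM per kb for Lta, 75.8 for Il17f, 20.7 for Il21, 10.8 for Lif, 6.64 for Il17a, 6.47 for Il22, 4.09 for Il2, 2.35 for Il10, 1.96 for Il3 and 0.169 for Ifng. The order by CPM without division by length was the same. Of the 9 neighboring pairs in this order only Il17f (48.9 to 118 CPM per kb) and Il21 (12 to 30.9 CPM per kb) had ranges that did not overlap. Per kilobase Lta was above Il17f in 4 of 6 libraries, the exceptions being Dyrk1a shRNA 1 and control 2. Without division by length it was above Il17f in every library, at 135 against 120 CPM in Dyrk1a shRNA 1 and 144 against 139 CPM in control 2. The 10 genes together made up 377 and 349 CPM in the Dyrk1a shRNA libraries, 343 and 408 CPM in the harmine libraries and 394 and 443 CPM in the control libraries, and Lta, Il17f, Il21 and Lif held 90.5% to 95.8% of that sum. In bulk RNA, fewer cells that transcribe a gene and less RNA per cell cannot be told apart, which holds for every level given here.

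**Figure D1:**
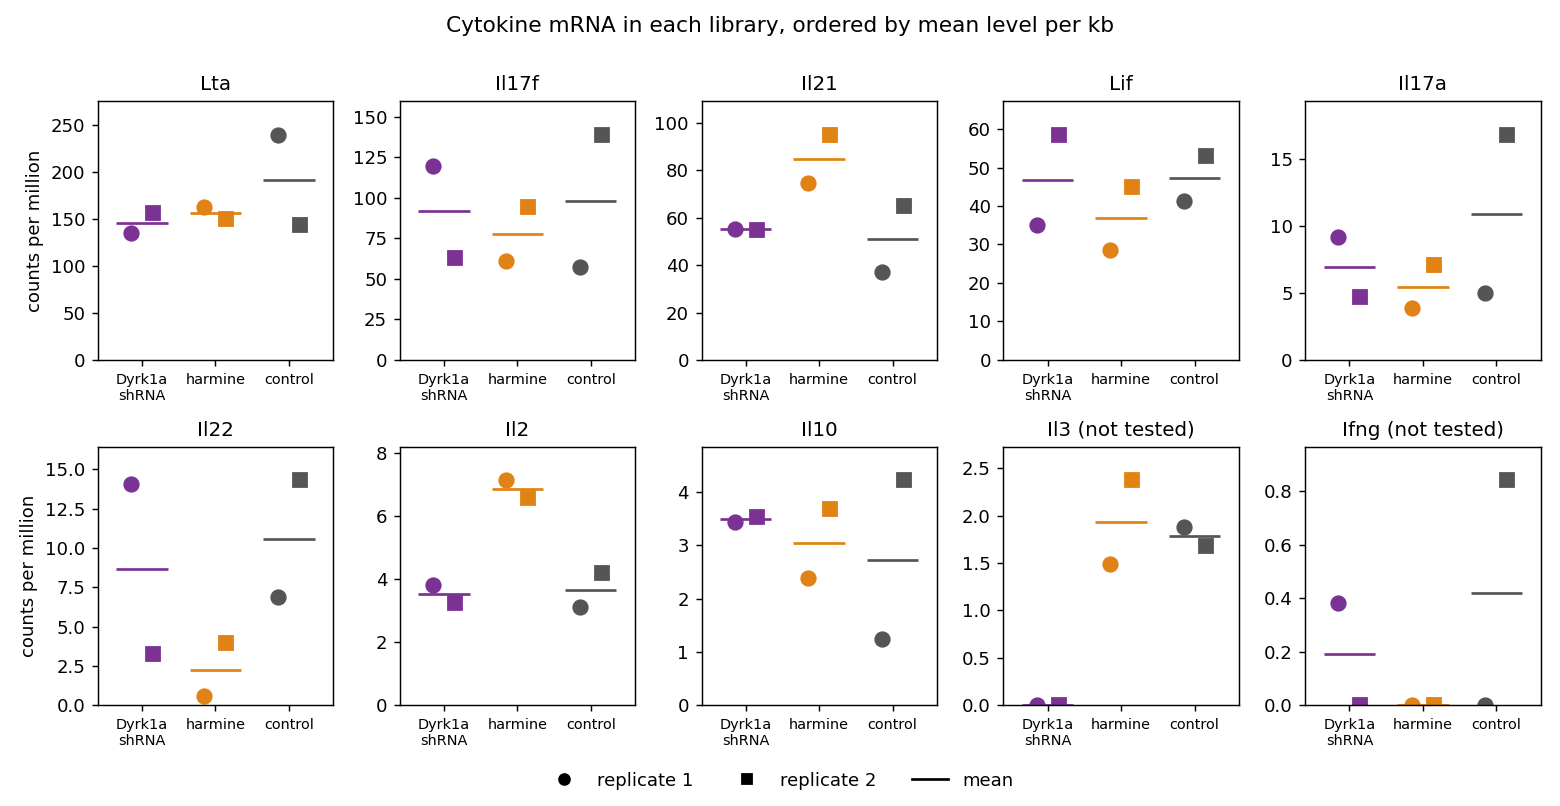
CPM of each cytokine gene in the 6 libraries, one panel per gene, each with its own vertical axis from 0; circles are replicate 1, squares replicate 2 and lines the group means. Harmine libraries lie above the control libraries for Il21 and Il2 and below them for Il22, Il3 is at 0 in both Dyrk1a shRNA libraries, and the replicates of Il17a, Il17f and Il22 lie far apart.

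The 3 groups were compared in 1 edgeR fit over all 10607 tested genes. Of the 10 cytokine genes 8 passed the filter, and Il3 and Ifng were too low to test. With harmine, 0 of the 8 passed the adjusted threshold of 0.05, where 0.00943% of all tested genes did, and 2 had an unadjusted p under 0.05 (Il21 higher, Il22 lower), where 5.28% of all genes did. With Dyrk1a shRNA against control 0 of 8 passed (0.0189% of all genes) and 0 had an unadjusted p under 0.05 (7.7% of all genes). With Dyrk1a shRNA against harmine 0 of 8 passed (0.00943% of all genes) and 3 had an unadjusted p under 0.05 (Il2 and Il21 lower, Il22 higher; 5.75% of all genes). The counts of unadjusted p depended on the processing. With length and GC trends removed, which was chosen after seeing the data, they were 1 for harmine against control (Il22 lost), 1 for Dyrk1a shRNA against control (Lta) and 0 for Dyrk1a shRNA against harmine (Il2 at a log2 fold change of -0.575 and Il21 at -0.37). The Wald test of DESeq2 likewise called 0 of the 8 in each comparison, with 2, 0 and 2 at an unadjusted p under 0.05 for harmine against control, Dyrk1a shRNA against control and Dyrk1a shRNA against harmine. The share of all genes at such a p was not computed for these alternatives, so their counts have no background beside them.

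The median log2 fold change of the 8 tested genes was -0.30 for harmine against control, -0.06 for Dyrk1a shRNA against control and 0.21 for Dyrk1a shRNA against harmine, beside -0.02, -0.01 and 0 over all tested genes in the same order of comparisons. With harmine 3 of 8 (37.5%) had groups that did not overlap, Il2 and Il21 higher and Il22 lower, beside 32.3% of all genes. Between Dyrk1a shRNA and control 0 of 8 did, beside 35.4% of all genes. Between Dyrk1a shRNA and harmine 2 of 8 (25%) did, Il2 and Il21, both lower with Dyrk1a shRNA, beside 41% of all genes. The 3 comparisons share libraries in pairs, so they are not independent of one another.

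**Figure D2:**
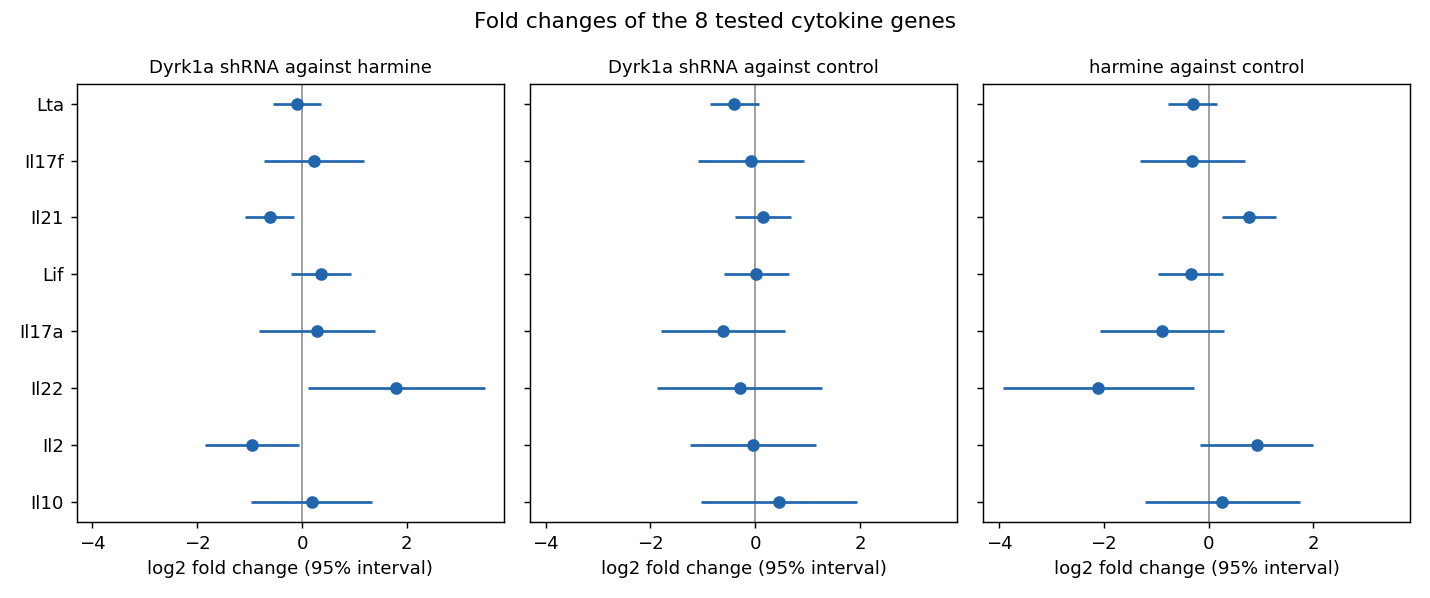
Log2 fold changes (points) with 95% intervals (lines) of the 8 tested cytokine genes in the 3 comparisons, from the fit of all 6 libraries; the vertical line is no difference. The intervals of Il21 and Il22 for harmine against control, and of Il21, Il22 and Il2 for Dyrk1a shRNA against harmine, leave out 0 before adjustment, and no gene passed after it.

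Il21 encodes a cytokine that acts on T and B cells through IL-21R and the common γ chain. It was counted 145 and 187.13 times in the Dyrk1a shRNA libraries, 251 and 361.31 times in the harmine libraries and 58.96 and 77 times in the control libraries. These counts correspond to 55.4 and 55 CPM with Dyrk1a shRNA, 74.6 and 95 CPM with harmine and 36.9 and 64.8 CPM in the controls. Both harmine libraries were the highest of the 6, and the Dyrk1a shRNA libraries lay between the controls. With harmine the mean was 84.8 ± 14.5 CPM and in the controls 50.9 ± 19.7 CPM (SD, n = 2 each), a log2 fold change of 0.77 (95% interval 0.25 to 1.28, rank 77 of 10607 by p, adjusted p = 0.838 by the edgeR quasi-likelihood test). Between Dyrk1a shRNA and control it was 0.14 (-0.39 to 0.68, adjusted p = 0.916), and between Dyrk1a shRNA and harmine -0.62 (-1.10 to -0.15, adjusted p = 0.825), none of which passed by the edgeR test.

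Il2, the neighbor of Il21, is the autocrine T cell growth factor. The sources differ on whether IL-2 protein was fed to the cultures, and the counts measure the mRNA of the cells. It was counted 10 and 11 times in the Dyrk1a shRNA libraries, 24 and 25 times in the harmine libraries and 5 and 5 times in the control libraries. In CPM it stood at 3.82 and 3.24 with Dyrk1a shRNA, 7.13 and 6.58 with harmine and 3.13 and 4.21 in the controls. Both harmine libraries were above the other 4, and the Dyrk1a shRNA and control libraries overlapped. Pooled over the libraries of a group, the exact 95% Poisson interval was 2.16 to 5.33 CPM with Dyrk1a shRNA (21 counts), 5.06 to 9.04 CPM with harmine (49 counts) and 1.72 to 6.6 CPM in the controls (10 counts), intervals that cover counting error only. The log2 fold change was 0.92 for harmine against control (standard error 0.51, adjusted p = 0.928), -0.04 for Dyrk1a shRNA against control (0.57, adjusted p = 0.993) and -0.96 for Dyrk1a shRNA against harmine (0.42, adjusted p = 0.834), and none passed the edgeR test. Thus Il2 and Il21 were both highest in the harmine libraries, and neither difference passed.

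Il17f, Il17a and Il22 encode cytokines of the Th17 program. IL-17F and IL-17A bind a shared receptor on stromal and epithelial cells, and IL-22 acts on epithelial cells. Il17f was counted 315 and 215 times in the Dyrk1a shRNA libraries, 206 and 359 times in the harmine libraries and 92 and 165 times in the control libraries. At 120 and 63.2 CPM with Dyrk1a shRNA, 61.2 and 94.5 CPM with harmine and 57.6 and 139 CPM in the controls, the groups overlapped, and the lower library of each lay between 57.6 and 63.2 CPM. Group means were 91.8 ± 40.4, 77.8 ± 23.5 and 98.2 ± 57.4 CPM (SD, n = 2) for Dyrk1a shRNA, harmine and control. Log2 fold changes were -0.31 (-1.31 to 0.70) for harmine against control, -0.08 (-1.09 to 0.92) for Dyrk1a shRNA against control and 0.22 (-0.73 to 1.18) for Dyrk1a shRNA against harmine.

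Il17a was counted 24 and 16 times in the Dyrk1a shRNA libraries, 13 and 27 times in the harmine libraries and 8 and 20 times in the control libraries. Its CPM, 9.17 and 4.71 with Dyrk1a shRNA, 3.86 and 7.11 with harmine and 5.01 and 16.8 in the controls, overlapped between all groups, and control 2 was the highest. The log2 fold change was -0.89 (-2.08 to 0.29, adjusted p = 0.928) for harmine against control, -0.61 (-1.79 to 0.58, adjusted p = 0.791) for Dyrk1a shRNA against control and 0.29 (-0.82 to 1.39, adjusted p = 0.97) for Dyrk1a shRNA against harmine by the edgeR test. In each library Il17f was the more abundant of the pair, both per kilobase and in counts.

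Il22 was counted 37.47 and 11.39 times in the Dyrk1a shRNA libraries, 2.03 and 15 times in the harmine libraries and 11 and 16.52 times in the control libraries. In CPM, computed from rounded counts, these were 14.1 and 3.24 with Dyrk1a shRNA, 0.594 and 3.95 with harmine and 6.88 and 14.3 in the controls. Both harmine libraries lay below both controls, and of the Dyrk1a shRNA libraries replicate 1 lay within the range of the controls and replicate 2 within that of harmine. The log2 fold change was -2.10 (-3.93 to -0.27, adjusted p = 0.904) for harmine against control, -0.30 (-1.88 to 1.28, adjusted p = 0.941) for Dyrk1a shRNA against control and 1.80 (0.12 to 3.48, adjusted p = 0.835) for Dyrk1a shRNA against harmine, and none passed the edgeR test. The last of these depended on single libraries, at 0.46 without Dyrk1a shRNA 1 and 3.70 without harmine 2. With the counts of Iltifb added to those of Il22, an alternative chosen after seeing the data, the values were -1.90 for harmine against control and 1.61 for Dyrk1a shRNA against harmine.

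These 3 Th17 cytokines differed between replicates in the same libraries. Il17a, Il17f and Il22 were each over 1.5 times higher in Dyrk1a shRNA 1 than 2, in harmine 2 than 1 and in control 2 than 1, an order seen after inspecting the values and given without a test. Of all 10607 tested genes 25 (0.236%) had this order by over 1.5 times in each pair, and without a minimum ratio 1176 (11.1%) had it. Il21 was among the latter, but its Dyrk1a shRNA libraries hardly differed, at 55.4 and 55 CPM. Of 7 markers of γδ T cells and innate-like lymphocytes 5 were found by symbol, of which Sox13 was at 0 in all libraries and Cd163l1 in 5 of 6. Their sum was 14.9 and 13.8 CPM with Dyrk1a shRNA, 8.02 and 7.63 CPM with harmine and 5.63 and 23.6 CPM in the controls, the same order of replicates with Dyrk1a shRNA and in the controls but not with harmine. Il23r, a receptor subunit on Th17 and innate-like cells, stood at 4.58 and 3.24 CPM with Dyrk1a shRNA, 2.08 and 2.11 CPM with harmine and 1.25 and 9.25 CPM in the controls. Blk, a kinase of B cells and of γδ T cells, stood at 9.55 and 7.65 CPM with Dyrk1a shRNA, 5.05 and 5 CPM with harmine and 4.38 and 14.3 CPM in the controls. Zbtb16, which encodes the innate lymphocyte factor PLZF, had another order, with 0.764 and 2.94 CPM with Dyrk1a shRNA, 0.594 and 0.526 CPM with harmine and 0 and 0 CPM in the controls. Th17 cells transcribe Il23r too, these markers were named after their values were seen, and the part of other cells in these values was not tested.

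**Figure D3:**
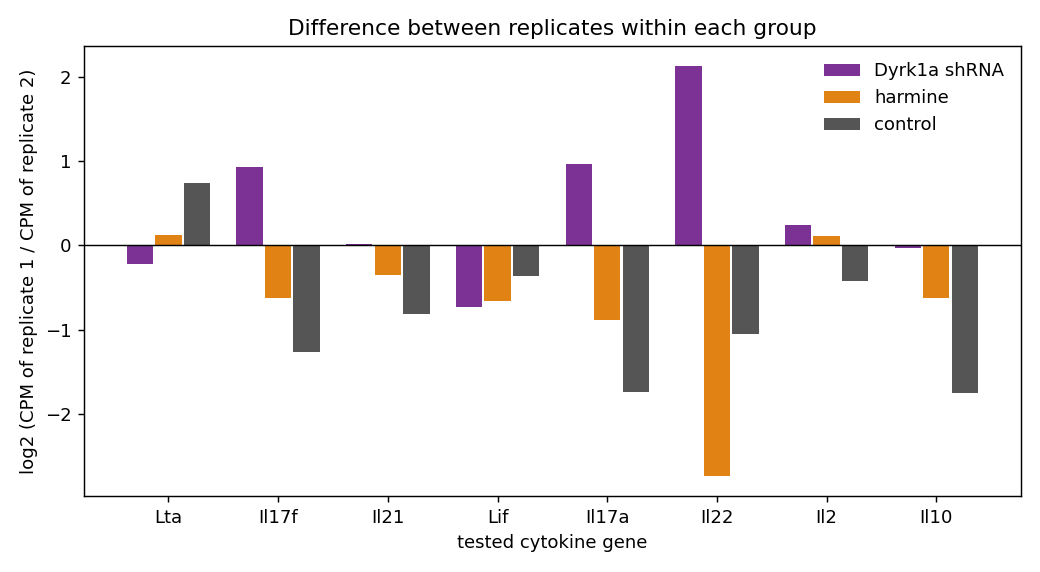
Log2 ratio of replicate 1 over replicate 2 in CPM within each group (colors) for the 8 tested cytokine genes, ordered by level. Il17f, Il17a and Il22 have bars above 0 for Dyrk1a shRNA and below 0 for harmine and control, while Lta is above 0 in the controls, where it was 240 CPM in replicate 1 and 144 CPM in replicate 2.

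Lta encodes a secreted TNF family ligand and was the most abundant of the 10 on average. It was counted 354 and 534 times in the Dyrk1a shRNA libraries, 550 and 570 times in the harmine libraries and 384 and 171 times in the control libraries. Its CPM were 135 and 157 with Dyrk1a shRNA, 163 and 150 with harmine and 240 and 144 in the controls. Control 1 stood above the other 5 libraries, which lay between 135 and 163 CPM, and all groups overlapped. The log2 fold change was -0.30 (-0.77 to 0.16, adjusted p = 0.938) for harmine against control, -0.40 (-0.87 to 0.06, adjusted p = 0.687) for Dyrk1a shRNA against control and -0.10 (-0.56 to 0.36, adjusted p = 0.975) for Dyrk1a shRNA against harmine by the edgeR test.

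The adjacent genes had the same high library. Tnf, the inflammatory cytokine, stood at 26.7 and 40.3 CPM with Dyrk1a shRNA, 27.3 and 29.2 CPM with harmine and 57.6 and 30.3 CPM in the controls, and its log2 fold change of harmine against control was -0.67 (-1.28 to -0.06, adjusted p = 0.928 by edgeR). Ltb, which encodes the membrane partner of lymphotoxin-α, stood at 243 and 219 CPM with Dyrk1a shRNA, 197 and 150 CPM with harmine and 283 and 167 CPM in the controls, with a log2 fold change of harmine against control of -0.38 (-0.88 to 0.12). Lta, Tnf and Ltb thus shared their highest library, control 1, in which ribosomal protein genes were also higher than in control 2. Without control 1 the log2 fold change of Lta was 0.12 for harmine against control and 0.02 for Dyrk1a shRNA against control, so both differences rested on that library. In the same way Tnf was at -0.11 and Ltb at 0.05 for harmine against control without control 1. Without control 2, which leaves control 1 as the only control, Tnf was at -1.02 and Ltb at -0.71. Osm moved little, at -0.25 without control 1 and -0.22 without control 2.

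Lif encodes a gp130 cytokine. It was counted 92 and 199 times in the Dyrk1a shRNA libraries, 96 and 171 times in the harmine libraries and 66 and 63 times in the control libraries, or 35.1 and 58.5 CPM with Dyrk1a shRNA, 28.5 and 45 CPM with harmine and 41.3 and 53 CPM in the controls. In CPM replicate 2 was the higher library in each group, and the groups overlapped. Harmine against control gave a log2 fold change of -0.34 (-0.96 to 0.28), Dyrk1a shRNA against control one of 0.02 (-0.60 to 0.63) and Dyrk1a shRNA against harmine one of 0.36 (-0.22 to 0.93). Its neighbor Osm, another gp130 cytokine, varied less, with 83.6 and 87.1 CPM with Dyrk1a shRNA, 74 and 90.8 CPM with harmine and 95.8 and 97.6 CPM in the controls. Both control libraries of Osm were the highest, at a log2 fold change of -0.23 (-0.63 to 0.17) for harmine against control and -0.18 (-0.58 to 0.23) for Dyrk1a shRNA against control.

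Il10, which encodes an anti-inflammatory cytokine of many helper lineages, was close to the lower limit of what could be tested. It was counted 9 and 12 times in the Dyrk1a shRNA libraries, 8 and 14 times in the harmine libraries and 2 and 5 times in the control libraries. At 3.44 and 3.53 CPM with Dyrk1a shRNA, 2.38 and 3.68 CPM with harmine and 1.25 and 4.21 CPM in the controls, both extremes were control libraries. The log2 fold change was 0.26 (-1.22 to 1.75) for harmine against control, 0.45 (-1.03 to 1.93) for Dyrk1a shRNA against control and 0.19 (-0.97 to 1.34) for Dyrk1a shRNA against harmine, and all 3 intervals include 0. Of its cluster, Il19 and Il20 had 0 counts in all libraries, and Il24 stood at 32.5 and 21.2 CPM with Dyrk1a shRNA, 22 and 23.7 CPM with harmine and 25 and 23.6 CPM in the controls, with log2 fold changes between -0.09 and 0.21.

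Il3 and Ifng did not pass the filter and were not tested with the others. Il3, which encodes a hematopoietic growth factor of activated T cells, was counted 0 and 0 times with Dyrk1a shRNA, 5 and 9 times with harmine and 3 and 2 times in the controls. The hairpin libraries thus lay apart from both other groups although the controls were the shallowest. Such separation was common, in 41% of tested genes between Dyrk1a shRNA and harmine and 35.4% between Dyrk1a shRNA and control. In CPM these were 0 and 0 with Dyrk1a shRNA, 1.49 and 2.37 with harmine and 1.88 and 1.68 in the controls. Against a floor of 3 counts over both Dyrk1a shRNA libraries (0.498 CPM), Il3 was 3.92-fold higher with harmine and 3.6-fold higher in the controls. These ratios are not lower bounds, since they leave out the counting error of the 14 harmine and 5 control counts. The exact Poisson interval of Il3 with Dyrk1a shRNA, 0 to 0.613 CPM, also reached above that floor. The interval was 1.07 to 3.28 CPM with harmine and 0.583 to 4.19 CPM in the controls. The intervals of Dyrk1a shRNA and control thus overlapped, and those of Dyrk1a shRNA and harmine did not. In the edgeR fit without a count filter, over 15589 genes, the adjusted p were 0.286 against harmine (unadjusted 0.00143) and 0.356 against control (unadjusted 0.00637), and the difference did not pass.

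The gene next to Il3 and the Th2 cytokine genes of the same chromosome were at low counts too. Csf2, which encodes GM-CSF, had 1 and 4 counts with Dyrk1a shRNA, 3 and 0 with harmine and 2 and 0 in the controls. Il4 had 1 and 7 counts with Dyrk1a shRNA, 3 and 16 with harmine and 4 and 0 in the controls, Il13 had between 0 and 3 counts in each library and Il5 had 0 in all. Ifng had 1 and 0 counts with Dyrk1a shRNA, 0 and 0 with harmine and 0 and 1 in the controls. No fold is given for it, since all groups were under the floor of 3 counts. That floor corresponds to 0.498 CPM with Dyrk1a shRNA, 0.419 CPM with harmine and 1.08 CPM in the controls. The exact Poisson intervals of Ifng reached higher, up to 0.926 CPM with Dyrk1a shRNA, 0.515 CPM with harmine and 2 CPM in the controls.

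Leaving out 1 library at a time showed which values rested on single libraries. Without control 2, the shallowest library, the log2 fold change of Il21 for harmine against control was 1.20 (standard error 0.25, edgeR adjusted p = 0.0111) and that of Lta for Dyrk1a shRNA against control was -0.71 (standard error 0.18, edgeR adjusted p = 0.0305), the only calls among the 10 genes in the alternatives. The remaining control is assumed there to vary like the libraries of the other groups. In that fit 2.65% of 10989 tested genes were called for harmine against control and 4% for Dyrk1a shRNA against control, far more than with all libraries. Without control 1 the value of Il21 for harmine against control was 0.38 and that of Lta for Dyrk1a shRNA against control 0.02. The difference of Il22 between harmine and control kept its sign in all 6 such fits, between -4.00 without harmine 2 and -1.36 without harmine 1, and that of Il2 lay between 0.69 and 1.12. Il17f and Il17a changed sign for harmine against control, to 0.44 and 0.15 without control 2.

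**Figure D4:**
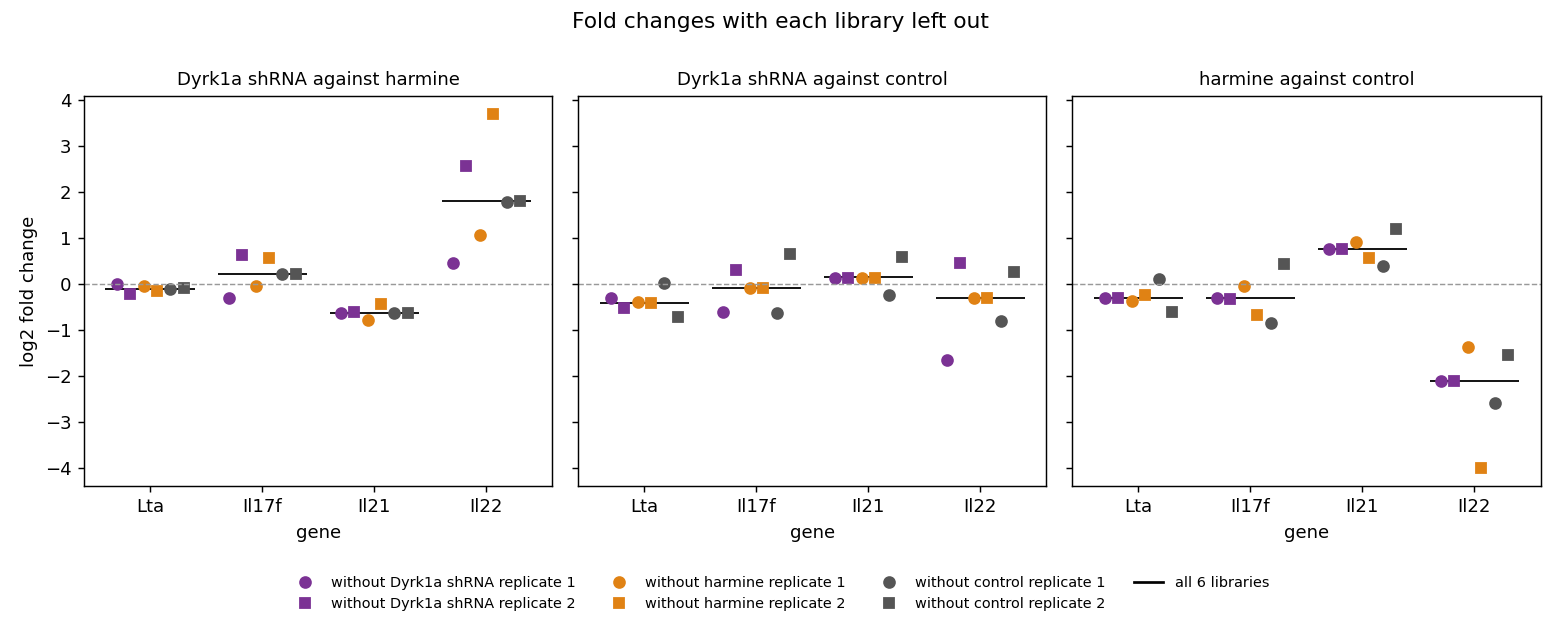
Log2 fold changes of Lta, Il17f, Il21 and Il22 in the 3 comparisons with all 6 libraries (black lines) and with each library left out in turn (points, color for the group and shape for the replicate left out). For harmine against control, the points of Il21 and Il22 stay on one side of 0, and those of Lta and Il17f cross it when a control library is left out.

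The related lists held no adjusted call either. Of 31 other cytokine and chemokine genes 16 were tested, with 4 above and 12 below 0 for harmine against control (median -0.12) and 3 with an unadjusted p under 0.05, all 3 lower, beside 5.28% of all genes. For Dyrk1a shRNA against control 7 were above and 9 below 0 (median -0.16), with 1 lower at such a p, beside 7.7% of all genes. For Dyrk1a shRNA against harmine 11 were above and 5 below (median 0.10), with 2 higher at such a p, beside 5.75% of all genes. Of 21 receptor genes for these cytokines 16 were tested. Their medians were 0.00, 0.08 and 0.01 for harmine against control, Dyrk1a shRNA against control and Dyrk1a shRNA against harmine. In the same order 0, 0 and 1 had an unadjusted p under 0.05, beside 5.28%, 7.7% and 5.75% of all genes.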

How the data were processed

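RNA was isolated by its poly(A) tail from activated CD4+ T cells of mice and sequenced as 6 libraries of 3 groups, primed with poly-dT and prepared by Nextera tagmentation. The authors deposited expected counts, estimated per gene by RSEM from reads aligned to mm10, as a single table without normalization. TopHat2 2.0.13, RSEM and DESeq stand in the submitters' processing notes, and the sources used here give no version of RSEM or of the gene annotation. The sample labels identify all 6 columns.

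The expected counts, rounded to integers, entered a robust quasi-likelihood fit of 3 group means in edgeR 4.0.16 (R 4.3.3) with TMM scaling, after filterByExpr at a minimum count of 10. Tests were two-sided, adjusted by Benjamini-Hochberg over 10607 genes and read at 0.05, and the fit was tested on simulated data. CPM divide rounded counts by the library total times the TMM factor, and standard errors and 95% intervals come from the fold change and its F statistic. Lengths and positions come from GENCODE M21 (GRCm38), which matched 21777 of 23420 symbols (93%), and promoters from RefSeq GRCm38.p6, with 9 of 10 members matched. A count of 3 over a group was taken as the floor against 0. Poisson intervals cover counting error only, and ratios to a floor leave out the counting error of the other group.

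The 10 genes were named whatever their values, as were their neighbors by position and Dyrk1a, and other list genes only where they passed, apart from Il23r, Blk, Zbtb16, Sox13 and Cd163l1, named after their values were seen. A further marker of that list was left out of it and is not reported here. Members and lists were chosen with earlier results of these data known. The alternatives changed the scaling (library size alone, DESeq2 size factors), the test (DESeq2 1.42.0, Wald), the filter (none, or 50 counts at minimum), the design (a block for the replicate number, or only the pair of groups compared) and the libraries (each left out once). Removal of length and GC trends (natural splines, 4 degrees of freedom), the sum of Il22 and Iltifb, thinning to the smallest library, and neighbors without each control were chosen after seeing the data.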

Additional observations from a re-analysis of the deposited data

How the results depend on the processing

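Of 363 fold changes of the tested cytokine genes under alternatives, 31 changed sign. Without control replicate 2 the log2 fold change was 1.2 for Il21 with harmine against control and -0.713 for Lta with Dyrk1a shRNA against control. That fit has a single control library, and far more of all tested genes passed in it than with all libraries, so its calls are not particular to cytokine genes. Under the alternatives that kept all libraries the number of cytokine genes called was 0 in each comparison. Replicate numbers are shared between groups by label only, and deviations of same-numbered libraries correlated at 0.12, 0.02 and 0.24, so they were not treated as pairs. With the replicate block the count of called cytokine genes stayed 0 in each comparison. The counts at an unadjusted p under 0.05 were 1 for harmine against control and 2 for Dyrk1a shRNA against harmine, beside 2 and 3 without it, Il22 being lost in both. The share of all genes at such a p with the block was not computed. In that fit Lif was at -0.036 for Dyrk1a shRNA against control, a change of sign. Other changes of sign outside the fits that leave out a library were for Dyrk1a shRNA against control, with length and GC trends removed (Il2 0.45, Il17f 0.17, Il22 0.093, Lif -0.14), with DESeq2 (Lif -0.004) and with thinned libraries (Lif -0.128).

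Leaving out 1 library gave, for harmine against control, log2 fold changes of -0.46 to 1.26 for Il10, -1.60 to 0.15 for Il17a, -0.84 to 0.44 for Il17f and -0.62 to 0.12 for Lta. For Dyrk1a shRNA against control they were -0.27 to 0.16 for Il2, -0.28 to 1.45 for Il10, -1.32 to 0.43 for Il17a, -0.62 to 0.66 for Il17f, -0.24 to 0.58 for Il21, -1.65 to 0.46 for Il22, -0.42 to 0.32 for Lif and -0.713 to 0.015 for Lta. For Dyrk1a shRNA against harmine they were -0.077 to 0.543 for Il10, -0.23 to 0.80 for Il17a, -0.30 to 0.62 for Il17f, 0.456 to 3.697 for Il22, -0.072 to 0.727 for Lif and -0.215 to 0.003 for Lta. The causes were not tested. Il2, Il21 and Il22 for harmine against control and for Dyrk1a shRNA against harmine kept their direction under every alternative that could test them. So did Lif for harmine against control, at -0.716 to -0.057, with an unadjusted p of 0.261 in the main edgeR fit. With a minimum count of 50, 4 of the 10 genes could be tested, and after thinning 6, so depth limits Il2, Il3, Il10, Il17a, Il22 and Ifng most.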
